A study of Mus musculus with 5 samples.

Results

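The mitochondrial ribosomal protein genes were described in wild-type mouse hearts from midgestation, E12.5. They were taken by name, as all genes whose single symbol in the platform annotation begins with Mrpl or Mrps followed by a number. This gave 74 of the 12393 genes measured, 47 with Mrpl symbols and 27 with Mrps symbols, covered by 127 probe sets. There were 5 hearts, with 1 Affymetrix 430A array for each. The mice were 129P2/OlaHsd, backcrossed over 2 generations to C57BL/6, and no genotype other than wild type, treatment or second stage is among the groups. RNA of each heart was amplified before labelling. The hearts carry the replicate numbers 6 to 10 and are called by them here. The labels do not give sex or litter, so the spread between hearts may hold either. All levels are log2 of the deposited intensity plus 16, and SD is taken over the 5 hearts. Every value rests on 5 arrays, which limits its precision.

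Mitochondria keep a ribosome of their own, related to that of bacteria, which translates the few respiratory chain and ATP synthase subunits encoded by mitochondrial DNA. Its RNA comes from mitochondrial DNA, whereas all of its proteins are encoded in the nucleus, made in the cytosol and imported. A small subunit decodes the messenger RNA and a large subunit joins the amino acids. Many of these proteins descend from bacterial ribosomal proteins, and others were added during the evolution of mitochondria. Heart muscle depends strongly on oxidative metabolism, and inherited defects of several of these proteins cause cardiomyopathy in infants.

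The symbols do not map exactly onto the 2 subunits, and each gene was therefore placed by the known structure of the ribosome. The small subunit had 24 measured genes, 15 with a bacterial homologue and 9 specific to mitochondria. The large subunit had 49, of which 29 have a bacterial homologue and 20 are specific to mitochondria. The large subunit count includes Mrps30 and Mrps18a, which carry small subunit names. Mrps18a and Mrps18b are counted as specific to mitochondria, although they are paralogues of Mrps18c, which is counted with a bacterial homologue. Mrps36 stands apart, since its product is a subunit of the 2-oxoglutarate dehydrogenase complex and no ribosomal protein.

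The labelled tissue was checked against markers first. All 7 heart muscle markers, among them Tnnt2, Myh6 and Nkx2-5, were above background in all 5 hearts. None of 4 liver markers was above background in all hearts, although Apoa2 was in 4, and the 3 lung and foregut markers were above it in none. All 5 red cell markers were above background throughout, as were 2 of 4 endothelial and 3 of 4 epicardial markers. In these bulk samples, fewer cells of a type and less RNA per cell cannot be told apart.

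Nearly all mitochondrial ribosomal protein genes gave signal in every heart. Background was set on each array at the 95th percentile of 75 genes of unrelated tissues such as lens, testis and pancreas, and lay between 5.19 and 5.63. A gene above it in all 5 hearts is called detected. Of the 74 genes, 73 were detected (98.6%), against 50.0% of all genes measured. All 49 large subunit genes and 23 of 24 small subunit genes were among them, as was Mrps36. The median level was 8.78 for the 74 genes and 5.82 for all genes. Levels ran from 5.57 for Mrps5 to 12.11 for Mrpl52, but probe sets differ in how strongly they respond, so the order of genes on this scale is no order of abundance.

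The single gene that was not detected was Mrps5, which encodes a protein of the small subunit that is related to bacterial S5. Its levels were 5.77, 5.30, 5.89, 5.48 and 5.42 in hearts 6 to 10. Heart 7 alone was below its background of 5.50. A second Mrps5 probe set was above background in 2 hearts, with a mean of 5.33 ± 0.41 (SD, n = 5). Of the remaining genes, Mrpl50 (6.00 ± 0.32), Mrpl10 (6.09 ± 0.08) and Mrpl14 (6.26 ± 0.26) had the lowest means, and these 3 together with Mrps5 were not detected with the background at the 99th percentile. Mrpl10 anchors the stalk of the large subunit, at which translation factors bind.

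**Figure D1:**
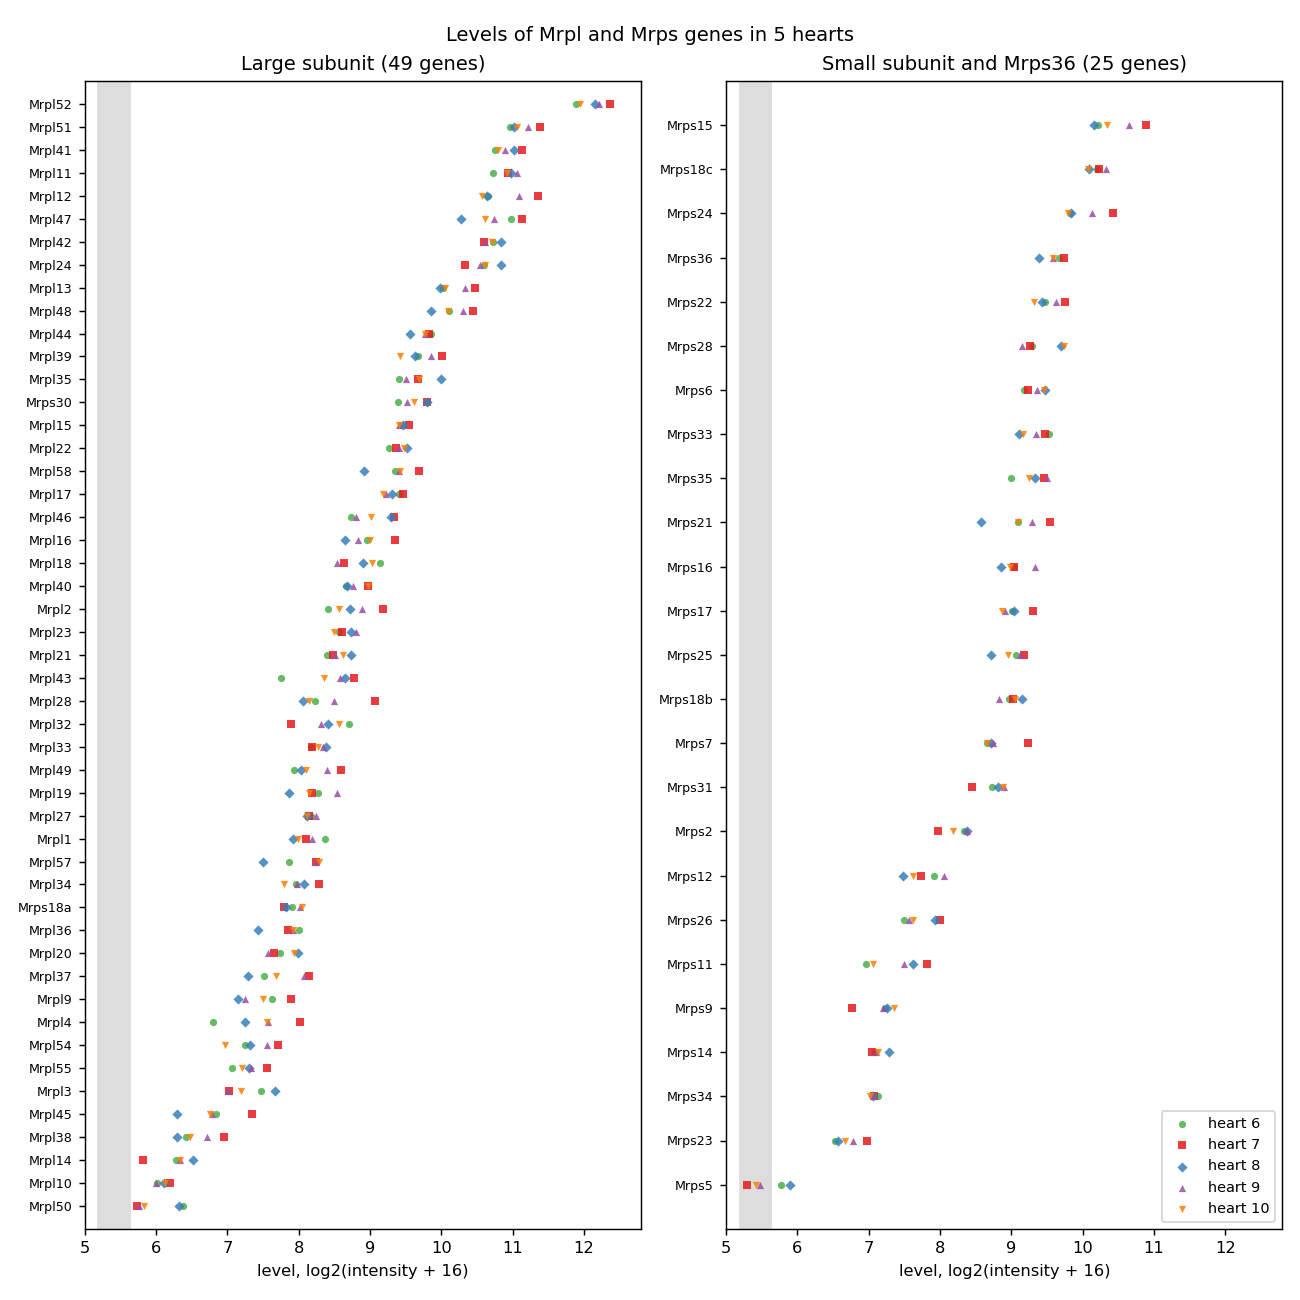
Level of each of the 74 genes in each of 5 hearts, as log2(intensity + 16), with large subunit genes on the left and small subunit genes and Mrps36 on the right. Each symbol is 1 heart and the grey band spans the background of the 5 arrays, 5.19 to 5.63; only Mrps5 has a heart inside its own array's background, and heart 7 lies at the right edge of many rows.

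The nuclear genes of the mitochondrial ribosome are known to carry sites for shared activators in their promoters, and their promoter sequences were searched to show what they have in common besides their names. RefSeq promoters of build GRCm38.p6, 250 bases before to 50 after the start, were found for 65 of the 74 genes and for 27025 genes in all. Of the latter, 5064 were genes detected in these hearts. Motifs were searched on both strands, as exact letters. The ETS site CCGGAAG, which is bound by GABP and related factors, was present in 24 of 65 genes (36.9%), in 9.93% of all genes with a promoter and in 22.9% of the detected genes. The NRF1 palindrome, whose letters stand in capitals in the Mrpl9 and Mrpl39 sequences, was present in 3 of 65, or 4.62%, in 1.07% of all genes and in 2.69% of detected genes. The YY1 core AAGATGG was present in 12 genes (18.5%), in 7.28% of all and in 9.38% of detected genes. The TATA box letters TATAAA were found in 5 genes, or 7.69%, in 15.7% of all and in 8.79% of detected genes. The median GC content was 58.7% over the genes' promoters, 52.7% over all promoters and 61.3% over those of detected genes. A match is a description of letters and was not tested as a site.

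The 150 bases before the start of 4 of these genes are shown because they hold the NRF1 palindrome (Mrpl9, Mrpl39) or the ETS site close to the start in genes tied to cardiomyopathy (Mrpl3, Mrps22). Mrpl32 also held the NRF1 palindrome and is not shown. Of the other disease genes named below, Mrps16 had an ETS site, whereas Mrpl44 and Mrps14 had no NRF1, ETS or YY1 match. Capitals mark the motif, and each is written 5′ to 3′ on the strand of its gene, from RefSeq, GRCm38.p6. Mrpl9 lies on the plus strand at chr3:94443186-94443335, Mrpl39 on the minus strand at chr16:84735245-84735394, Mrpl3 on the plus strand at chr9:105053118-105053267 and Mrps22 on the minus strand at chr9:98601680-98601829.
Mrpl9: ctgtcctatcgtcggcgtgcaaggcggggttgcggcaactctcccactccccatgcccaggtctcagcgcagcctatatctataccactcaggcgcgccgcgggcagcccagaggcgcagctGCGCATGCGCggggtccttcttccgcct
Mrpl39: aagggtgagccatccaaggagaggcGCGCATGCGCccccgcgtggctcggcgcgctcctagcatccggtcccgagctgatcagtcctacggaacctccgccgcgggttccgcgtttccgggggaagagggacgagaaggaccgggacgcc
Mrpl3: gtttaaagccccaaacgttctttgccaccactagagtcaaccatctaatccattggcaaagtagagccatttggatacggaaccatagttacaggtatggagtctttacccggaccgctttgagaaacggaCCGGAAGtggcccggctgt
Mrps22: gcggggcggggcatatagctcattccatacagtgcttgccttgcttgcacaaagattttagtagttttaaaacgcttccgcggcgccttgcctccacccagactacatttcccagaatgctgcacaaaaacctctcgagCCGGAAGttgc

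Many of the genes also sit head to head with a neighbour. The 300-base promoter window overlapped that of another gene on the opposite strand for 22 of 65 genes (33.8%), against 11.9% of all genes and 21.1% of detected genes. One such pair consists of a member of each subunit, Mrpl46 and Mrps11 on chromosome 7. Mrpl46 had 8.73, 9.34, 9.29, 8.80 and 9.02 in hearts 6 to 10, and Mrps11 had 6.96, 7.82, 7.61, 7.49 and 7.06. Both were highest in heart 7, next highest in heart 8 and lowest in heart 6. Of the other partners, 3 are named for their known roles, chosen after the list was seen. Mrps12, whose bacterial relative lies at the decoding centre, faces the mitochondrial seryl-tRNA synthetase gene Sars2. Mrps12 was highest in heart 9 and lowest in heart 8, whereas Sars2 was highest in heart 8 and lowest in heart 9. Sars2 was above background in only 3 hearts, however. Its level in heart 9 (5.20) was below that array's background of 5.33, and that in heart 8 (5.74) was near the background of 5.63. The order of hearts for Sars2 thus rests on values near background. Mrpl47 faces Ndufb5, which encodes a subunit of respiratory complex I, and Mrpl49 faces Fau, which encodes a fusion protein that yields a cytosolic ribosomal protein.

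Each gene's variance over the hearts was set by an F test against a prior variance that limma fitted to these same genes by level. It is called limma's variance test here. It asks whether a gene varied more than is typical at its level, so spread shared by all genes does not count. With 1 array per heart, the test cannot separate differences between hearts from measurement error. None of the 74 genes passed it, either after Benjamini-Hochberg adjustment over all genes (adjusted p between 0.960 and 1) or at an unadjusted p under 0.05. The lowest unadjusted p was 0.0733, for Mrpl12. Among all genes, 5 passed after adjustment (0.0403%) and 551 at an unadjusted p under 0.05 (4.45%). The median SD was 0.21 over the 74 genes and 0.26 over all genes. It was 0.24 for 1771 other genes whose mean lay between 7.77 and 9.50, the middle range of the members' levels. The SD was below the prior for 47 of the 74 genes (63.5%), against 53.8% of all genes. Single genes had SDs from 0.04 to 0.45 and, on the intensity scale, coefficients of variation from 3.10% to 33.3% with a median of 15.3%. The 5 genes that passed after adjustment had SDs from 1.38 to 2.91, whereas no member ranged over more than 1.22 between its lowest and highest heart. A gene that missed the threshold is not shown to be equal between hearts.

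**Figure D2:**
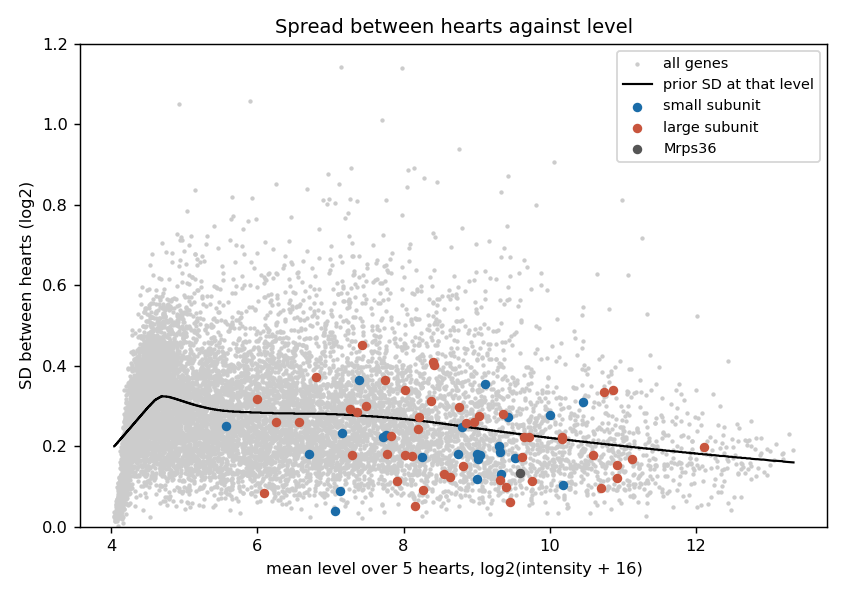
SD between the 5 hearts against mean level, both on the log2(intensity + 16) scale, with 1 point per gene, small subunit genes in blue, large subunit genes in red, Mrps36 in dark grey and all genes in light grey; the line is limma's prior SD. The coloured points lie on both sides of the line, up to an SD of 0.45, and 5 genes with an SD above the plotted range are not shown.

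The 6 detected genes with the largest spread were 5 of the large and 1 of the small subunit, among 49 and 23 detected. Mrpl4, a protein with a bacterial homologue, had levels of 6.79, 8.01, 7.25, 7.56 and 7.56 in hearts 6 to 10 (SD 0.45). Mrpl28 had 8.23, 9.07, 8.06, 8.50 and 8.15 (SD 0.41), and Mrpl43 had 7.75, 8.77, 8.65, 8.57 and 8.36 (SD 0.40). Heart 7 was highest for all 3, and heart 6 was lowest for Mrpl4 and Mrpl43. Mrpl45, which in the ribosome lies at the exit of the peptide tunnel and faces the inner membrane, had 6.84, 7.34, 6.29, 6.78 and 6.75 (SD 0.37). Mrpl37 had 7.51, 8.15, 7.29, 8.08 and 7.68, and the small subunit gene Mrps11, given above, also had an SD of 0.37. None of the 6 passed limma's variance test (adjusted p = 0.960 for each).

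At the other end, some genes were nearly level across the hearts. Mrps34, a protein specific to the mitochondrial small subunit, had 7.13, 7.07, 7.06, 7.06 and 7.02 in hearts 6 to 10 (SD 0.04). Mrpl27, whose bacterial relative reaches the peptidyl transferase centre, had 8.17, 8.14, 8.11, 8.24 and 8.12 (SD 0.05). Mrpl15 had an SD of 0.06 and Mrpl10 of 0.08. The Mrpl15 value belongs to a probe set of a type prone to cross-hybridise, and the next probe set of that gene had an SD of 0.21.

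Some of the genes have human counterparts that are mutated in infantile cardiomyopathy or lactic acidosis, and 5 of them are given here. Mrpl3, which lies near the peptidyl transferase centre, had 7.48, 7.02, 7.67, 7.00 and 7.19 in hearts 6 to 10. Mrpl44, which carries a fold related to ribonuclease III, had 9.85, 9.83, 9.56, 9.77 and 9.77. Heart 8 was highest for Mrpl3, also on its second detected probe set. It was lowest for Mrpl44 on the probe set used, but highest on another detected Mrpl44 probe set (7.98), so the order of hearts for Mrpl44 depended on the probe set. In the small subunit, Mrps22 had 9.47, 9.75, 9.42, 9.63 and 9.32, Mrps14 had 7.08, 7.05, 7.28, 7.11 and 7.13, and Mrps16 had 9.04, 9.03, 8.85, 9.34 and 8.98. Their SDs were 0.17, 0.09 and 0.18, and no heart was highest for more than one of them.

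Mrpl12, the counterpart of the bacterial stalk protein that recruits translation factors, had the lowest unadjusted p of the family. Its levels were 10.66, 11.35, 10.63, 11.09 and 10.57 in hearts 6 to 10. The scaled intensity was 1601, 2592, 1572, 2158 and 1503 in the same order. Hearts 7 and 9 were above hearts 6, 8 and 10, and the adjusted p of limma's variance test was 0.960. Mrpl11, at the base of the stalk, ranged from 10.72 to 11.05 on the probe set used, which is of a type prone to cross-hybridise, and was lowest in heart 6. On another detected probe set of Mrpl11 heart 7 was lowest (8.57) and heart 6 had 9.04, so the order of hearts turned with the probe set.

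The Mrps18 genes are 3 paralogues that descend from 1 bacterial ribosomal protein, each at its own place in the ribosome. Despite this shared descent, only Mrps18c is counted here among the genes with a bacterial homologue. Mrps18c, which takes the bacterial place in the small subunit, had 10.20, 10.23, 10.08, 10.33 and 10.08 in hearts 6 to 10. Mrps18b, elsewhere in the small subunit, had 8.97, 9.02, 9.15, 8.83 and 9.05. Mrps18a, in the large subunit, had 7.90, 7.79, 7.82, 8.02 and 8.05. All 3 were detected, with SDs between 0.10 and 0.12, and a different heart was highest for each. Mrps30, the other large subunit gene with a small subunit name, had 9.39, 9.79, 9.79, 9.52 and 9.61. The dehydrogenase gene Mrps36 had 9.67, 9.74, 9.39, 9.59 and 9.58, with an SD of 0.13.

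Heart 7 stood above the others for more of these genes than any other heart did. It was the highest of the 5 hearts for 38 of the 74 genes (51.4%), the lowest for 11 and in between for 25. Heart 8 was highest for 14, heart 9 for 9, heart 6 for 8 and heart 10 for 5. Among all genes heart 7 was highest for 27.6% and lowest for 24%, and among detected genes it was highest for 30.4%. Hearts 8, 9, 6 and 10 were highest for 24.9%, 15.4%, 18.2% and 13.9% of all genes, in that order. The median difference of the 74 genes from their own means was -0.05, 0.15, -0.02, 0.06 and -0.06 for hearts 6 to 10. The same median over all genes lay between -0.02 and 0.02 in each heart. The shift of heart 7 was seen in these data before it was counted, so it is given without a test.

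The difference in heart 7 was uneven across the family. Relative to the mean of the other hearts, heart 7 differed by between -0.61 (Mrpl32) and 0.84 (Mrpl28), with a median of 0.19. A further detected probe set of Mrpl28 was also highest in heart 7 (7.88). Another, above background in 3 hearts, was lowest there (4.49). Mrpl32 had 8.71, 7.89, 8.41, 8.31 and 8.57 in hearts 6 to 10. Genes specific to mitochondria had a median difference in heart 7 of 0.23 from their own means, and 18 of 29 were highest there (62.1%). Genes with a bacterial homologue had a median of 0.01, and 19 of 44 were highest there (43.2%). The share was highest in the large subunit proteins specific to mitochondria, with 14 of 20. The difference between the classes was not tested. By subunit, 27 of 49 large and 10 of 24 small subunit genes were highest in heart 7.

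Heart 7 also differed in other measures. Its ratio of 3′ to 5′ signal for the Gapdh control was 5.69, against 2.50 to 3.55 in the other hearts, while its actin ratio of 4.27 was below the 4.48 of heart 8. Of the 5 red cell markers, 4 were highest in heart 7, and their summed intensity was 26845 there, 25311 in heart 8 and 17382 to 17781 in the other hearts. Of the 3 macrophage markers, 2 were highest in heart 7, Csf1r (8.99) and Cd68 (5.45), but Cd68 was below that array's background of 5.50. The 3 summed to 534 in heart 7, against 223 to 467, and Ptprc was above background in no heart. Endothelial markers were highest in heart 7 in 0 of 4 cases and summed to 974 there, against 1385 to 1911, and 2 of the 4 were above background in no heart. The sum was mostly Tek, which was lowest in heart 7 (9.84 against 10.36 to 10.82). Kdr, the other detected marker, had 6.35 in heart 7 and was lowest in heart 9 (6.01). Of the epicardial markers, Wt1 (6.96), Tbx18 (6.79) and Tcf21 (5.25, below background) were lowest in heart 7, and Upk3b (8.85) was highest there; their summed intensity was 669 against 648 to 761. Heart muscle markers summed to 33505 in heart 7 and to 27545 to 33637 in the others. Among these, the calcium channel gene Ryr2 was lowest in heart 7, at 6.70 against 7.45 to 7.96. The part of RNA quality and of these cells in the result was not tested. Without heart 7, heart 9 was highest for 30 of the 74 genes (40.5%), against 25.4% of all genes, and heart 8 for 23 (31.1%, against 31.9%).

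**Figure D3:**
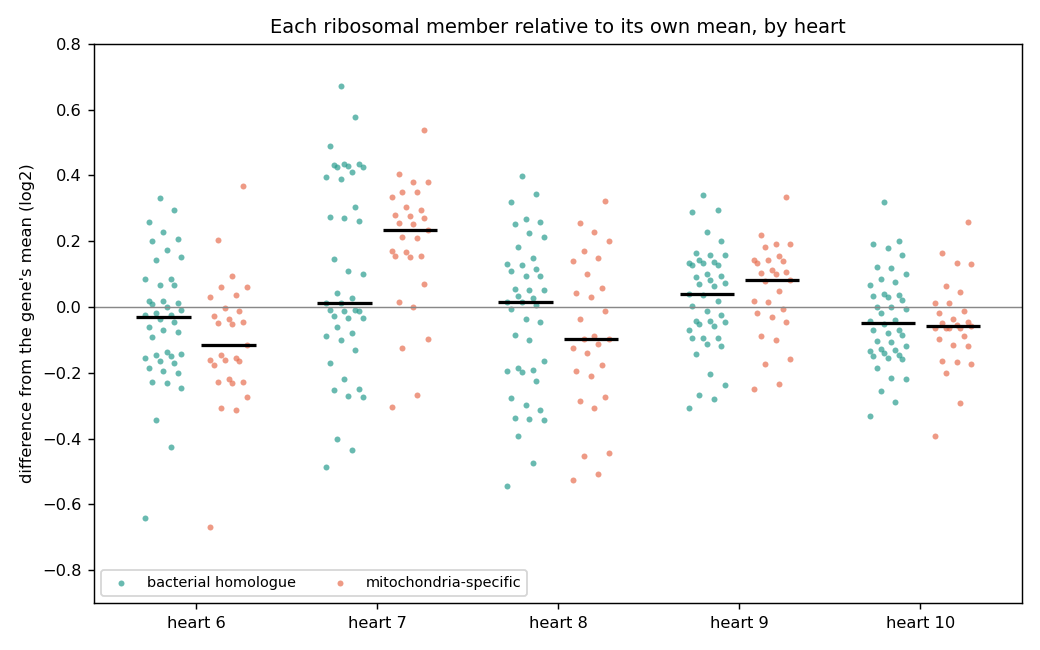
Difference of each ribosomal protein gene from its own mean over 5 hearts (log2), by heart, for 44 genes with a bacterial homologue (green) and 29 genes specific to mitochondria (orange); black bars are medians. In heart 7 the median is 0.23 for the mitochondria-specific genes and 0.01 for those with a bacterial homologue, and both classes spread over both sides of 0.

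The rest of the machinery of mitochondrial energy supply can be set beside the family. For 79 nuclear genes of the respiratory chain and ATP synthase, 75 were detected (94.9%), heart 7 was highest for 36 (45.6%) and the median difference in heart 7 was 0.11. For 47 cytosolic ribosomal protein genes, 42 were detected (89.4%), heart 7 was highest for 14 (29.8%) and that median was 0.10. Among the 74 mitochondrial ribosomal genes heart 8 was lowest for 23 (31.1%) and heart 6 for 22 (29.7%). Over all genes measured these shares were 20% and 20.8%. Heart 6 was lowest for 36 of the 79 respiratory genes and for 25 of the 47 cytosolic ribosomal genes. These differences between the sets were not tested. No gene of either set passed limma's variance test after adjustment, and 3 and 5 did at an unadjusted p under 0.05.

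Further ribosomal proteins whose symbols do not follow the Mrpl and Mrps pattern were all detected, 4 of 4 measured. Dap3, a GTP-binding protein of the small subunit, had 9.33, 9.42, 9.34, 9.13 and 9.33 in hearts 6 to 10. Chchd1 had a mean of 8.64 ± 0.11 and Ptcd3 of 9.93 ± 0.09 (SD, n = 5), both also small subunit proteins. Gadd45gip1, a large subunit protein, ranged from 5.99 in heart 9 to 6.88 in heart 7 (SD 0.36).

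Factors that work on the mitochondrial ribosome were detected in most cases. All 6 measured translation factors were, with the elongation factor genes Tufm at 8.49 ± 0.26 and Gfm1 at 7.97 ± 0.08. Gfm2 had 5.73 ± 0.11. The initiation factor gene Mtif2 varied most, with 8.32, 9.14, 8.73, 7.97 and 8.21 in hearts 6 to 10. Heart 7 was highest for 5 of the 6 (83.3%), against 27.6% of all genes and 30.4% of detected genes. Of 13 measured genes that charge mitochondrial transfer RNAs, 11 were detected and 7 were highest in heart 7 (53.8%). Some of the 13, such as Gars and Kars, also serve the cytosol. Ears2 had 6.94 ± 0.15 and Fars2 7.16 ± 0.30, and Hars2, with the largest SD, had 6.00 ± 0.33. Pars2 and Sars2 were above background in 4 and 3 hearts.

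Of 17 measured genes of ribosome assembly and mitochondrial RNA handling, 15 were detected and 9 were highest in heart 7 (52.9%, against 27.6% of all genes). Eral1, a chaperone of the small subunit RNA, had 6.44 ± 0.09, the helicase gene Dhx30 had 8.58 ± 0.05 and the GTPase gene Mtg1 had 6.87 ± 0.20. Mtg2 and Mrm2 were above background in 4 and 3 hearts. Tfb1m, which methylates the small subunit RNA, had the largest SD, with 6.94, 6.86, 5.92, 6.23 and 7.20 in hearts 6 to 10. Its unadjusted p was 0.0375 and its adjusted p by limma's variance test 0.960. All 16 measured genes of protein import, which bring the ribosomal proteins into the organelle, were detected, with the receptor genes Tomm20 at 10.18 ± 0.30 and Tomm22 at 11.07 ± 0.10 and the pore gene Tomm40 at 6.04 ± 0.06. Among them, the processing peptidase gene Pmpcb varied most, from 8.84 in heart 8 to 9.88 in heart 9. Of the 16 import genes, heart 7 was highest for 6 and heart 8 was lowest for 9, against 27.6% and 20% of all genes.

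Genes that copy and transcribe mitochondrial DNA were all detected, 11 of 11 measured, with the mitochondrial RNA polymerase gene Polrmt at 5.70, 6.73, 6.03, 6.87 and 6.29 and the DNA packaging factor gene Tfam at 8.06, 8.18, 8.13, 8.23 and 8.45 in hearts 6 to 10. The transcription factor gene Tfb2m had 7.77 ± 0.15. Heart 7 was highest for 2 of the 11. Of 12 regulators of mitochondrial growth, 8 were detected and 1 was highest in heart 7. Over all genes the share highest in heart 7 was 27.6%. The coactivator gene Ppargc1a, a regulator of mitochondrial content, had 7.69, 7.19, 7.44, 7.50 and 7.53. The related coactivator genes Ppargc1b and Pprc1 had 5.87 ± 0.23 and 6.95 ± 0.25. Nrf1, whose palindrome was searched above, had 5.98, 6.41, 6.04, 6.49 and 6.34, and the ETS factor gene Gabpa had 6.78, 6.16, 6.76, 6.98 and 7.01. Yy1 varied most of the 12, with 7.78, 6.79, 8.10, 7.46 and 8.13 and its lowest level in heart 7 (unadjusted p = 0.0244, adjusted p = 0.956 by limma's variance test). Esrrg and Myc were above background in no heart. The difference in pattern between these lists and the ribosomal genes was not tested.

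A measurement of these genes depends on which probe set is read. For 41 of the 74 genes there was 1 probe set and for 33 there were several, and the one with the highest mean was used. All probe sets were detected for 12 of the 33 genes, some for 20 and none for Mrps5. The 20 were Mrpl1, Mrpl3, Mrpl9, Mrpl11, Mrpl15, Mrpl17, Mrpl19, Mrpl21, Mrpl28, Mrpl33, Mrpl35, Mrpl38, Mrpl41, Mrpl42, Mrpl50, Mrpl51, Mrpl57, Mrps2, Mrps11 and Mrps25. The gap between a gene's highest and lowest probe set had a median of 2.74. The largest was 6.41, for Mrpl42, whose probe sets had means of 10.70 ± 0.10 and 4.29 ± 0.30 (SD, n = 5). Mrpl15 had 7 probe sets, of which 4 were detected and 2 were above background in no heart. Mrpl52, by contrast, was detected by all 4 of its probe sets, and heart 7 was highest in each. Taken over the 53 probe sets that were not used, 30 were detected, and heart 7 was highest for 12 of them (40.0%) with a median difference of 0.02. That median was 0.15 for the 74 genes on the probe sets used and 0.02 over all detected genes. The probe set used was highest in heart 7 in 19 of these 30 cases, and in 12 of the 19 the further probe set was too.

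**Figure D4:**
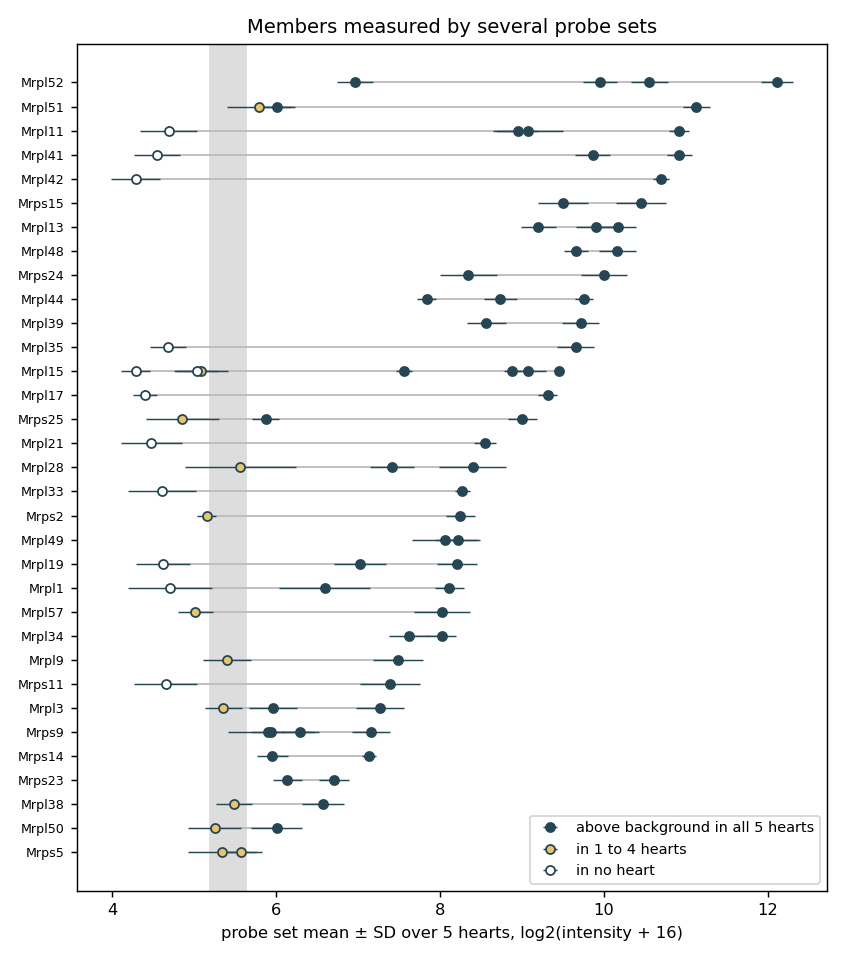
Mean ± SD over 5 hearts of every probe set of the 33 genes with several, as log2(intensity + 16), with 1 row per gene and the background range in grey. Filled dark points were above background in all 5 hearts, yellow in 1 to 4 and white in none; 20 genes have both dark and paler points.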

How the data were processed

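The authors deposited linear intensities, 1 for each probe set on each array. The submitters' processing notes name GCOS, and the sources used here do not give its version or algorithm. The 2% trimmed mean of the deposited intensities was 150.1 on every array. Of 22690 probe sets, 20380 with 1 gene symbol were used. Those with several symbols (691, of which 3 name a gene of this family beside another gene), not listed in the annotation (1606) or controls (64, of which 51 are also among those not listed) were left out, 2310 in all. Symbols are those of the platform annotation, and the Entrez numbers of all 74 genes were found in the GRCm38.p6 gene table. Intensities were scaled to a trimmed mean of 150 and analysed as log2(intensity + 16), which compresses differences of weak genes. A scale shared between arrays removes any difference in total signal.

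Tests were run under R 4.3.3, with the prior variance from limma 3.58.1. The variance test is an upper-tail F test of a gene's variance against limma's robust, trended prior. The F test itself is not a function of limma, and the largest prior degrees of freedom, 12.06, were taken for every gene. Benjamini-Hochberg adjustment was over 12393 genes at 0.05, and the test was tried first on simulated data. The sole group allows no contrast. The labels name separate hearts but no litters.

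Genes were named by a rule: those below background in a heart, the 6 of largest and 4 of smallest SD, single hearts far apart, the Mrps18 paralogues, genes tied to heart disease, misplaced names, genes whose probe sets disagreed, and from each other list its first 3 measured genes and the one of largest SD. Other named genes, such as Mrpl32, Mrpl46, Nrf1 and Gabpa, and the promoters shown were chosen with values or motif matches in view; the rule had set the promoters of the Mrps18 paralogues and of genes of largest SD. Mrpl56 was not measured. The members, lists and rule were chosen with earlier results of these data known. Alternatives were no rescaling, quantile normalization, an offset of 1 or 64, averaging of probe sets, _x_at and _s_at probe sets left out, each heart left out, other backgrounds and other priors.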

Additional observations from a re-analysis of the deposited data

Results flagged for a closer look

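The outermost heart's distance to its neighbour, as a share of the range (Dixon's ratio), exceeded its 95% critical value of 0.71 for 4 of the 74 genes (5.41%) and for 7.56% of all genes measured. Chance gives about 1 in 20, so the count is no result about these genes, and the 4 are given as values. Mrps7, the small subunit relative of bacterial S7, had a ratio of 0.845: heart 7 had 9.24 and the other hearts 8.66 to 8.75. Mrps9 had a ratio of 0.73: heart 7 had 6.76 and the other hearts 7.20 to 7.36. Of its 3 further probe sets, the one with the next highest mean was also lowest in heart 7, and the other two were lowest in heart 6. Mrpl36 had a ratio of 0.739: heart 8 had 7.43 and the other hearts 7.85 to 8.00. Mrpl44 had a ratio of 0.715: heart 8 had 9.56 and the other hearts 9.77 to 9.85. This was not repeated by its 2 further detected probe sets, of which one was lowest in heart 9 and the other was highest in heart 8.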

How the results depend on the processing

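Between 69 and 74 genes were detected under every alternative run. Without _x_at and _s_at probe sets, 69 of 71 measured genes were detected, Mrpl37, Mrps12 and Mrps24 having no other probe set. Without heart 7, or where 3 hearts sufficed, Mrps5 counted as detected too. No gene passed limma's variance test under any alternative. Heart 7 was highest for 34 to 41 genes and the median difference there was 0.11 to 0.16. Counts of the highest heart and medians by class were added after seeing the data; the median deviation of mitochondria-specific members in heart 7 was 0.171 to 0.245, and the median deviation of members with a bacterial homologue in heart 7 was 0.001 to 0.055. The median SD ran from 0.17 to 0.22. Of 1170 values recomputed for 95 results, 1167 were counted as unchanged. An adjusted p had to keep its side of 0.05. A median difference had to stay within 0.089, the spread of the medians over hearts. Counts had to stay within a set factor. An SD could change by up to its own size, so no fall in an SD could count. These bounds were wide, so the tally says little about stability. The 3 values that moved were SDs of single genes. That of Mrpl33 moved to 0.23 with probe sets averaged, and those of Mrpl15 to 0.21 and Mrpl11 to 0.25 without _x_at and _s_at probe sets. No paired analysis was possible because there is only 1 group. The results limited most by signal over background are those of Mrps5, Mrpl50, Mrpl10 and Mrpl14.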
